A study of Nematostella vectensis with 123 samples.

Results

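Embryos 11 to 19 of a single-embryo time course of the starlet sea anemone Nematostella vectensis were compared with each other. They were chosen by label time alone, and they are 9 of the 123 embryos in the series. The earlier group holds the 5 embryos labelled 360, 400, 440, 480 and 520 min (6 to 8.67 h), and the later group the 4 embryos labelled 560, 600, 640 and 680 min (9.33 to 11.3 h). The labels state no unit, and the numbers were read as minutes from the collection protocol. Differences are later minus earlier. All 9 are untreated embryos of an unnamed strain. They were freed of egg jelly with cysteine, picked at the 4-cell stage, kept singly in a drop of diluted sea water at 20 °C and frozen one by one. Each time has 1 embryo, so part of the spread within a group is change with age. The labels name no clutch or parent, and p-values measure only the spread between these embryos.

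An early animal embryo runs on RNA laid down in the egg. Its own genome is switched on while the cells divide, and the egg's RNA is then broken down, a change known as the maternal-to-zygotic transition. In Nematostella the cleaving cells form a hollow ball, the blastula, which folds inward again and again before it gastrulates. The labels give times and no stages. None of the 40499 transcript models in the table matched a gene of the reference table (0 of 40499 identifiers), so no stage marker could be checked, and models are given by identifier without a role.

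The 9 libraries held 206062 to 1333573 counts on transcript models. Embryo 17 (600 min) had 206062 and embryo 18 (640 min) 269450, the lowest totals, while the 5 earlier embryos had 541701 to 1012741. With 3 counts as the limit, a model at 0 may have stood as high as 2.25 CPM (counts per 1000000 model counts) in embryo 19 or 14.6 CPM in embryo 17, counting error only. No pair of embryos within a group agreed within sampling noise (smallest chi-square per degree of freedom 6.76).

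The profile of the whole embryo moved by small steps between 6 and 9.33 h and lay far from there in the embryos of 640 and 680 min. The score on principal component 1, which held 39.2% of the variance, was -50.2 in embryo 11, -43.8 in embryo 12, -34.2 in embryo 13, -32.8 in embryo 14 and -12.2 in embryo 15. In the later group it was 2.16 in embryo 16, -53.2 in embryo 17, 127 in embryo 18 and 97.1 in embryo 19. Embryos 18 and 19 stood apart at the high end, and the library labelled 600 min lay below all 5 embryos of the earlier group. Since the scores fell into separate sets, no correlation is given over all 9. Over embryos 11 to 17 the correlation with label time was r = 0.40 (exact permutation test over pairings, two-sided, p = 0.37, adjusted p = 0.49) and rho = 0.25 (exact p = 0.59, adjusted p = 0.59, n = 7). Over embryos 11 to 16 it was r = 0.97 and rho = 1.0 (n = 6), so the relation rests on leaving out embryo 17. The exact permutation p was 0.0028 for each, the smallest the design allows (adjusted p = 0.0056 over the 4 relations). Embryos 18 and 19 were left out of both sets, and embryo 17 of the second, after these same scores were seen. The p-values are therefore no valid test of a relation with label time.

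**Figure D1:**
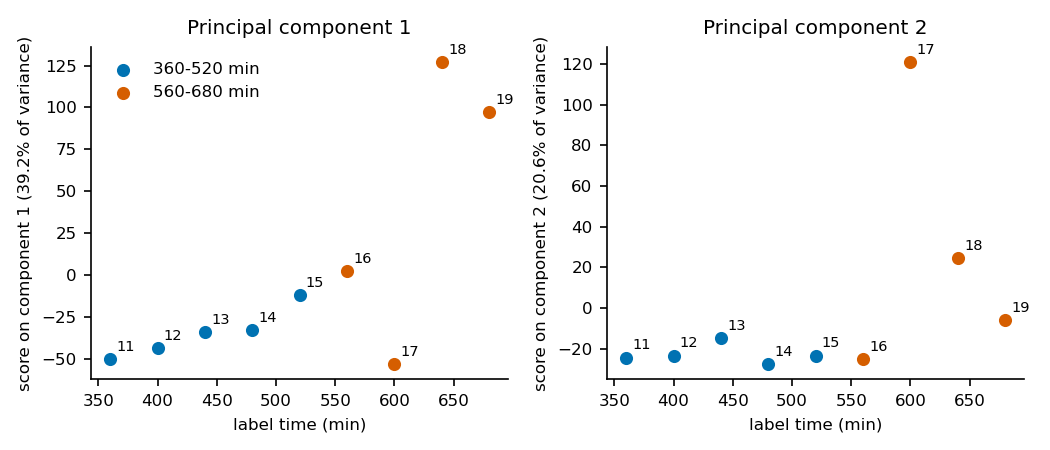
Scores of the 9 embryos on principal components 1 and 2 of log2 CPM (vertical axes) against label time in minutes (horizontal axes), with the embryo number beside each point. Component 1 climbs from -50.2 to 2.16 over embryos 11 to 16, and embryos 18 and 19 lie at 127 and 97.1. Embryo 17 lies at -53.2 on component 1 and at 121 on component 2, far from the other 8.

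Embryo 17 differed from its neighbours in time in several measures. Its score on component 2 (20.6% of the variance) was 121, against -27.6 to 24.4 in the other 8 embryos. With each library thinned to 200000 counts, the rank correlation of model levels was 0.57 between embryos 16 and 17, 0.41 between embryos 17 and 18, and 0.72 between embryos 18 and 19. Among the 5 earlier embryos these correlations ran from 0.67 to 0.75. Embryo 16 stood at 0.57 with embryos 18 and 19 as well, and at 0.65 to 0.70 with embryos 11 to 15. Embryos 11 to 15 stood at 0.40 to 0.54 with embryo 18, so a low value there is not particular to embryo 17. With embryos 11 to 15, embryo 17 had 0.60 to 0.63, above its values with embryos 16 and 18. Embryo 17 also had the fewest counts and the highest share of counts on the identifier stem with the most models (19.8%). It had 1.62 model counts per spike-in count, as did embryo 13. Its position on component 1 went against its label time of 600 min. Whether that label is wrong was not tested, nor was the part of depth or RNA quality. The counts of called models, the medians of risers and fallers and the tests of whole-embryo measures are given with and without it.

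No single model passed the test between the groups. Of 10505 models tested, 0 were called changed (0%; edgeR quasi-likelihood test, called where the Benjamini-Hochberg adjusted p was below 0.05 and the log2 fold change at or beyond 1 either way). The smallest adjusted p was 0.095. An unadjusted p under 0.05 was found for 1651 models (15.7%), of which 999 were higher and 652 lower at 560 to 680 min. DESeq2, another count test, called 520 of 14917 models (3.49%), 373 higher and 147 lower. With edgeR and no filter on low counts 807 of 27515 models were called (2.93%), and 398 of 15137 (2.63%) in 1 fit that took the spread from the embryos of 0 to 280 and 720 to 1060 min as well. The 2 groups did not overlap for 183 models that were higher (1.74%) and 416 that were lower (3.96%), beside 0% called.

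The count of called models turned on the libraries of the later group. Without embryo 17, 597 of 11432 models were called (5.22%; edgeR, adjusted p under 0.05), 449 higher and 148 lower. Without embryo 16, 137 of 11534 were called (1.19%), 90 higher and 47 lower. Leaving out any one of the other 7 embryos gave 0. The filter on low counts was reset each time, which changed the number of models tested.

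With label time as a continuous covariate in place of groups, 662 of the 10505 models were called (6.3%), 527 higher and 135 lower over the 3 h between the group means. The 662 belonged to 499 identifier stems, and 2 stems held a model in each direction. Of the 597 models called without embryo 17, 323 were called with continuous time as well, all 323 in the same direction, from shared embryos. Without embryo 17 the continuous fit called 1469 of 11432 models (12.8%), 962 higher and 507 lower, and 659 of the 662 were among them. More models were therefore called higher than lower in each of these fits.

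**Figure D2:**
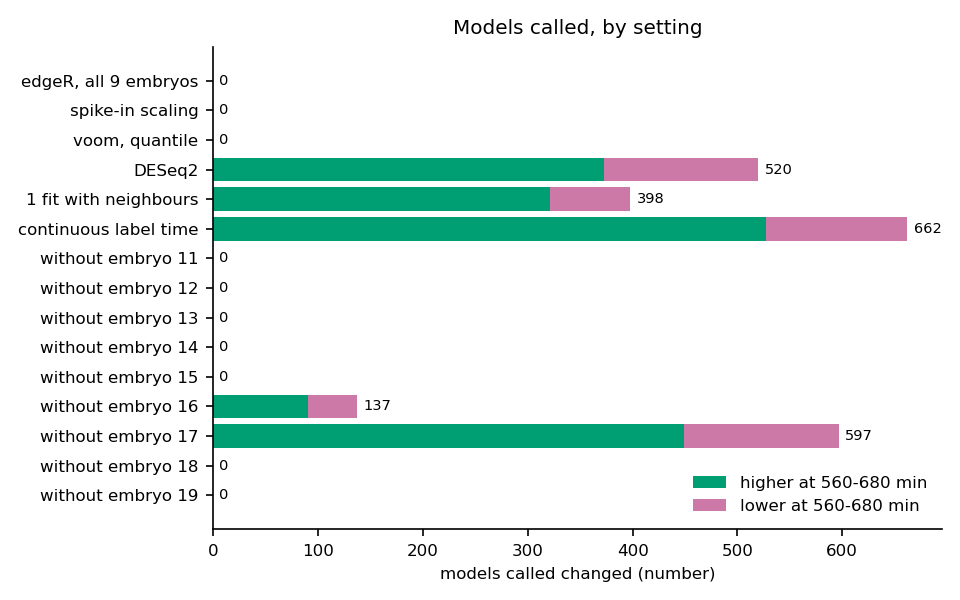
Number of models called changed between 360-520 and 560-680 min (horizontal axis) under 15 settings, split into models higher and lower in the later embryos. The fit over all 9 embryos gives 0, the fit without embryo 17 gives 597, and continuous label time gives 662.

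Scaling to the spike-ins left the count at 0 over all 9 embryos and moved the median over all tested models from -0.03 to 0.15 on the log2 scale. Without embryo 17, spike-in scaling called 1117 models (9.77%), 91.0% of them higher, against 75.2% with TMM scaling of the same 8 embryos. The split between higher and lower models thus depended on the scaling.

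Where the embryos of 6 to 12 h stand in the wider change was read from embryos outside the comparison. The 9 embryos labelled 0 to 280 min were tested against the 9 labelled 720 to 1060 min, with no embryo shared. Of 9935 models, 4390 were called (44.2%), 2161 higher and 2229 lower after 12 h (edgeR, adjusted p under 0.05). Of the 1863 risers that were also tested between 6 and 12 h, 1737 (93.2%) were higher at 560 to 680 min, with a median log2 fold change of 0.97. Of the 2117 fallers tested there, 1899 (89.7%) were lower, with a median of -0.74. Over all 9180 models tested in both, 48.6% were higher and the median was -0.03. Without embryo 17 the medians were 1.16 for risers and -1.06 for fallers. The remaining risers and fallers did not share that direction, and none of these models was called singly in the fit of all 9 embryos.

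The models called higher after 12 h stood at increasing levels from the start of the window. Their median log2(CPM + 1) was 3.86 to 4.46 in the embryos of 0 to 280 min. The embryos before 6 h and after 12 h served to call these models, so their medians are largely fixed by the choice. It was 4.57 in embryo 11, 4.63 in embryo 12, 4.82 in embryo 13, 4.93 in embryo 14 and 5.13 in embryo 15. It was then 5.33 in embryo 16, 4.66 in embryo 17, 6.16 in embryo 18 and 6.37 in embryo 19. Each of embryos 11 to 16 was above the one before it in time, and embryo 17 lay between embryos 12 and 13. In the embryos of 720 to 1060 min the median ran from 5.18 to 6.63, with the shallow embryo 27 (56536 counts) at the low end.

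The median of the models called lower after 12 h was 5.92 in embryo 11, 5.91 in embryo 12, 5.72 in embryo 13, 5.86 in embryo 14 and 5.68 in embryo 15, against 5.49 in embryo 1 and 5.81 to 6.05 in embryos 2 to 9. It was 5.47 in embryo 16, 5.63 in embryo 17, 3.99 in embryo 18 and 4.00 in embryo 19. Embryos 13 and 15 lay below embryos 2 to 9 and above embryo 1, all of which helped to choose these models. Embryos 18 and 19 lay within the range of the embryos after 12 h (3.52 to 5.18). The high end was the shallow embryo 27, and the next highest was 4.72 in embryo 20. The median over all 9935 models was between 5.25 and 5.45 in the 9 embryos.

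The models were also counted past the midpoint between their mean levels before 6 h and after 12 h. Of the 2161 risers, 21.3% were above their midpoint in embryo 11, 42.0% in embryo 15, 50.5% in embryo 16, 27.3% in embryo 17, 76.2% in embryo 18 and 92.1% in embryo 19. Of the 2229 fallers, 7.31% were below theirs in embryo 11, 16.2% in embryo 15, 22.9% in embryo 16, 27.1% in embryo 17, 70.5% in embryo 18 and 80.8% in embryo 19. In the embryos of 0 to 280 min, 7.54 to 15.7% of risers were past it. Of fallers, 23.6% were past it in embryo 1 and 1.35 to 7.31% in embryos 2 to 9, which embryos 13 to 15 exceeded. The embryos of 0 to 280 min helped to choose the models and to set the midpoints. Their low shares are therefore largely fixed by the choice and are no independent baseline. Embryo 17 was above embryo 16 in the share of fallers past the midpoint, while its faller median was the higher of the pair. The share was larger for risers than for fallers in each of the 9 embryos, by 0.11 percentage points in embryo 17. Risers also had the larger share in embryos 2 to 9, 20 to 26 and 28, and the smaller in embryos 1 and 27. The sign is therefore not particular to embryos 11 to 19. The difference in embryos 18 and 19 lay within the range of embryos 2 to 9, and in embryos 11 to 16 above that range. These shares are descriptions, with no test of the difference between risers and fallers. They were taken without thinning, and embryos 17 and 18 were the shallowest of the 9. The part of depth in them was not tested.

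**Figure D3:**
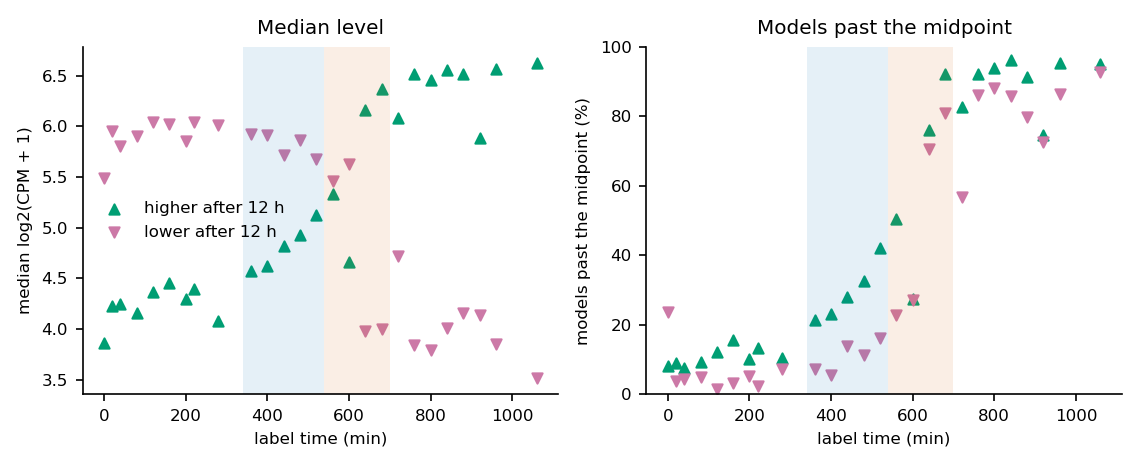
Left, median log2(CPM + 1) of the 2161 models called higher and the 2229 called lower after 12 h, by label time in minutes, for embryos with at least 200000 counts. Right, the percentage of each set past its midpoint. Blue shading marks 360 to 520 min and orange 560 to 680 min. Points outside the shading are largely fixed by the choice of models. Risers climb through the blue span, from 21.3 to 42.0% past the midpoint, while fallers reach 70.5% first in embryo 18, and embryo 17 falls back to 27.3% of risers.

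The 597 models called without embryo 17 allow a reading of embryo 17 that its own values did not choose. Relative to the mean of the 5 earlier embryos, the median log2 difference of the 449 higher models was 1.61 in embryo 16, -0.03 in embryo 17, 2.76 in embryo 18 and 3.06 in embryo 19. For the 148 lower models it was -2.01 in embryo 16, -0.25 in embryo 17, -3.09 in embryo 18 and -2.59 in embryo 19. The values of embryos 16, 18 and 19 are fixed in direction by the choice. The 5 earlier embryos ran from -0.31 to 0.47 for the higher models and from -0.13 to 0.12 for the lower ones. They also served to call the models and are centred on their own mean, so this range is narrowed by the choice. Embryo 17 lay within that range for the higher models and a little below it for the lower ones.

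Models that first appeared or were lost across the window were counted at equal depth. The set of new models held 117 of the 40499 models at 200000 counts per library. Each was at 0 in the 9 embryos of 0 to 280 min and present in 8 embryos of 720 to 1060 min. Embryo 27 was too shallow to enter. Of these 117, embryo 11 held 18, embryo 12 held 43, embryo 13 held 42, embryo 14 held 47 and embryo 15 held 72. Embryo 16 held 63, embryo 17 held 42, embryo 18 held 103 and embryo 19 held 112. The groups overlapped through embryos 16 and 17, and embryo 11 already held 15.4% of the set.

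The opposite set was much smaller. At the same depth it held 17 of the 40499 models. Each was present in all embryos of 0 to 280 min and at 0 in the 8 later ones. Embryos 11 to 15 held 15, 14, 10, 12 and 10 of them, in order of time. Embryos 16 and 17 held 10 each, embryo 18 held 5 and embryo 19 held 1. With 3 counts needed for detection the sets were 280 new and 42 lost of the 40499 models. Embryo 19 held 274 and 3 of them.

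**Figure D4:**
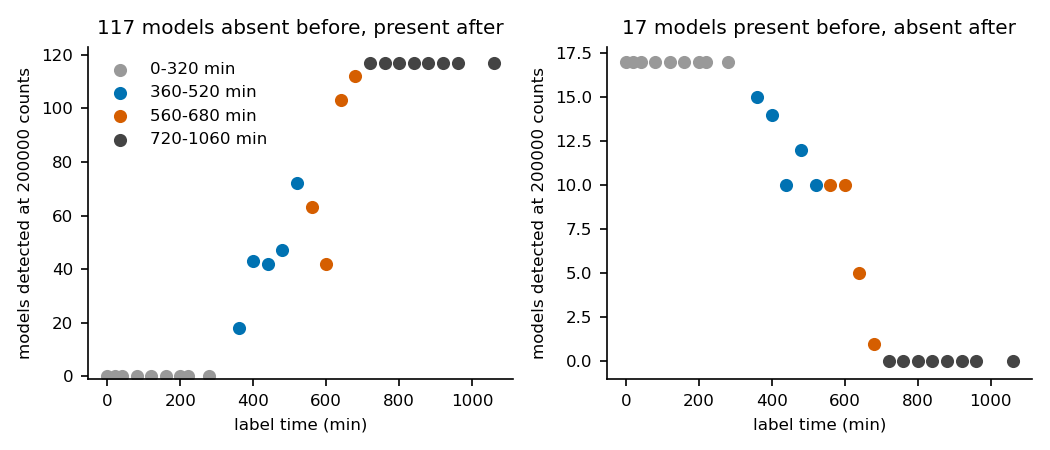
Models detected at 200000 counts per library (vertical axes) by label time in minutes, for 117 models absent at 0 to 280 min and present after 12 h (left) and 17 models present at 0 to 280 min and absent after 12 h (right). The grey and black points are fixed by the choice of models. Among the coloured points, embryos 18 and 19 hold 103 and 112 new models and 5 and 1 lost ones.

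Models present on one side of the boundary only were also counted. At 200000 counts, 23 of the 27515 models with a count in the 9 embryos (0.0836%) were present in all 4 later embryos and in none of the 5 earlier ones, and their highest mean over the 9 embryos was at most 15.6 CPM. Of the 23, 4 were also at 0 in the embryos of 0 to 280 min. The reverse held for 56 models (0.204%), with means of at most 25.5 CPM. Of these 56, 4 were at 0 in the 8 embryos of 720 to 1060 min.

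By the rule for naming models none qualified, since none was called. The 4 models given here were chosen after their values were seen, as the pair in each direction with the smallest unadjusted p among models whose groups did not overlap and whose higher group averaged 20 CPM or more. Their difference between the groups is therefore a description.

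Nv.T1.7661.2 stood at 11.4, 8.89, 9.51, 1.85 and 0 CPM in embryos 11 to 15. In embryos 16 to 19 it was at 43.2, 131, 92.8 and 159 CPM. Each later embryo was above each earlier one, embryo 17 included. The log2 fold change was 4.07 ± 0.70 (SE; edgeR unadjusted p = 4.5e-05, adjusted p = 0.095), from a mean of 6.33 ± 5.06 CPM (SD, n = 5) to 106 ± 50.2 CPM (SD, n = 4). At 0 to 280 min it ranged from 0 to 68.1 CPM with a median of 18.5, above the earlier group's median of 8.89, and at 720 to 1060 min from 14.7 to 195 CPM. The 195 CPM rests on 11 counts in the shallow embryo 27.

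Nv.T1.28135.1 stood at 12.7, 17.8, 23.1, 29.5 and 31.0 CPM in embryos 11 to 15, each above the one before. It was at 102 CPM in embryo 16, 67.9 in embryo 17, 134 in embryo 18 and 124 in embryo 19. The log2 fold change was 2.34 ± 0.41 (SE; edgeR adjusted p = 0.095), from 22.8 ± 7.75 CPM (SD, n = 5) to 107 ± 29.2 CPM (SD, n = 4). Its median was 139 CPM at 720 to 1060 min (range 17.7 to 305) and 281 CPM at 1120 to 1400 min (214 to 354). In embryos 1 to 9 the model ranged from 9.93 to 101 CPM with a median of 29.3. That median was above the 23.1 CPM of the earlier group. Embryo 1 (101 CPM) and embryo 2 (69.9 CPM) lay within the range of the later group, and embryos 3 to 9 lay below it.

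Nv.T1.36657.1 was lower in the later group and was present again after it. It stood at 34.2, 18.8, 32.6, 42.5 and 10.3 CPM in embryos 11 to 15. It had 0 counts in embryos 16, 17 and 18 and 1 count in embryo 19 (0.750 CPM). Pooled over each group, that is 100 counts against 1, a ratio of 61.7-fold with a 95% interval of 10.8 to 2461 (exact binomial, counting error only; edgeR adjusted p = 0.095 for the group difference). At the depth of embryo 17 a level of up to 14.6 CPM could have gone unseen. All 9 embryos of 720 to 1060 min held the model, at 4.15 to 17.7 CPM, and at 0 to 280 min it ranged from 0 to 46.9 CPM. Both ends of the range at 720 to 1060 min were 1 count, in embryo 25 (4.15 CPM) and the shallow embryo 27 (17.7 CPM).

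Nv.T1.7161.2 stood at 119, 74.1, 117, 90.5 and 109 CPM in embryos 11 to 15. It was at 25.5, 9.71, 14.8 and 22.5 CPM in embryos 16 to 19, so the groups did not overlap. The log2 fold change was -2.31 ± 0.42 (SE; edgeR adjusted p = 0.095), from 102 ± 19.2 CPM (SD, n = 5) to 18.1 ± 7.20 CPM (SD, n = 4). Embryos of 0 to 280 min lay at 81.2 to 155 CPM and those of 720 to 1060 min at 0 to 45.3 CPM. The 0 was in the shallow embryo 27, where a level of up to 53.1 CPM could have gone unseen. In the embryos of 1120 to 1400 min it was at 8.94 to 19.0 CPM.

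For these 4 models embryo 17 lay with the later group, whereas on component 1 and in the risers above it lay with or below the earlier one. The choice of models without overlap fixes this for the 4.

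**Figure D5:**
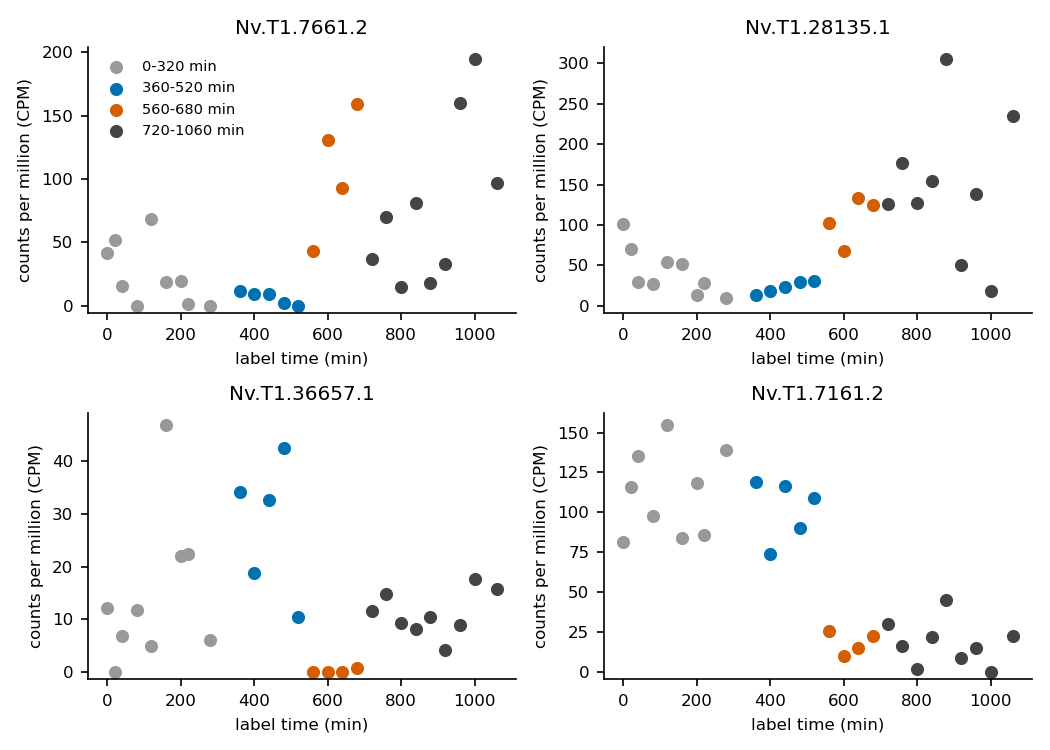
CPM (vertical axes) of the 4 models by label time in minutes (horizontal axes), 1 point per embryo, coloured by time range. The upper models are higher in each embryo of 560 to 680 min than in any of 360 to 520 min, and the lower models are lower. Nv.T1.36657.1 is at or near 0 at 560 to 680 min and at 4.15 to 17.7 CPM in the embryos after it. Both ends of that last range are 1 count.

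The amount of RNA, read as model counts per count of added spike-in RNA, did not pass the test. It was 2.11, 2.40, 1.62, 1.95 and 2.16 in embryos 11 to 15, and 2.34, 1.62, 3.24 and 2.85 in embryos 16 to 19. The groups overlapped. The log2 difference of 0.26 had a standard error of 0.24 (two-sided exact permutation test, p = 0.27, adjusted p = 0.36 over 4 measures; the smallest p for 5 against 4 is 0.016). It was 0.45 without embryo 17 and 0.12 without embryo 18, and passed in neither case (exact permutation test, adjusted p = 0.14 and 0.64).

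The mean number of models detected at equal depth was lower in the later group, which did not pass after adjustment. At 200000 counts embryos 11 to 15 held 15548, 16260, 15406, 15338 and 15653 models, and embryos 16 to 19 held 15146, 12853, 13125 and 15454. The difference was -1496 ± 692 (SE, exact permutation test, p = 0.048, adjusted p = 0.13), and -1066 without embryo 17 (exact permutation test, p = 0.11, adjusted p = 0.14). Embryos 17 and 18, with the fewest models, were also the shallowest libraries, and equal counts need not mean equal numbers of distinct molecules. The part of depth in this difference was not tested.

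The shares of counts on the pair of identifier stems with the most models did not pass the test either. The stem with 3153 models took 12.5, 12.2, 18.9, 11.2 and 12.0% of model counts in embryos 11 to 15, and 14.7, 19.8, 14.5 and 9.52% in embryos 16 to 19. The difference was 1.24 ± 2.53 percentage points (SE, exact permutation p = 0.57, adjusted p = 0.57). Its sign turned without embryo 17, at -0.49 (exact permutation p = 0.89, adjusted p = 0.89). The stem with 539 models took 9.91 to 11.4% in the earlier group and 9.83 to 10.1% in the later one. That difference was -0.62 ± 0.25 percentage points (SE, exact permutation p = 0.063, adjusted p = 0.13). Without embryo 17 it was -0.63 (exact permutation p = 0.11, adjusted p = 0.14). Counts shared between near-identical models of a stem are uncertain.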

How the data were processed

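RNA of single embryos was read by CEL-Seq, which gives each embryo a barcode and reads 3' ends after linear amplification. A DSN step, a nuclease treatment against abundant double-stranded molecules, followed, per the labels' protocols. The submitters' processing notes list HTSeq 0.5.4p3, Bowtie2 2.1.0 and CASAVA 1.8. The genome build is not given in the sources used here, and neither is the annotation. The authors deposited raw counts for 40499 transcript models, 92 spike-ins and 5 unassigned classes. In the 9 embryos 6.52 to 8.98% of counts had no feature and 38.3 to 43.8% were unaligned; both stayed out of library sizes, as did the spike-ins. Models sharing an identifier stem were counted apart.

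Counts were tested with edgeR 4.0.16 (R 4.3.3; TMM, filterByExpr, Benjamini-Hochberg over all tested models). SE is the absolute log2 fold change over the square root of F. Alternatives used DESeq2 1.42.0 and limma 3.58.1. CPM values divide by summed model counts. Libraries under 50000 counts (embryo 10) were left out. Single values were tested by exact permutation. Steps were tested on simulated data. Members and lists were chosen with earlier results of these data known. Models were to be named if called, without overlap between groups and at 20 CPM or more. The midpoint shares, the new and lost sets and the fits named as added were chosen after seeing the data.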

Additional observations from a re-analysis of the deposited data

Results flagged for a closer look

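Among 34 sets of values (17 measures in each of the 2 groups), 2 had an embryo far from the others; chance alone gives about 1 in 20. In the earlier group the share of counts on the stem with the most models was 18.9% in embryo 13, against 12.5% in the next highest embryo and 11.2% in the lowest. In the later group Nv.T1.36657.1 was at 0.750 CPM in embryo 19 and at 0 in the other 3, which rests on 1 count.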

How the results depend on the processing

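The count of called models, 0 in the fit of all 9 embryos, stayed at 0 with median-ratio or spike-in scaling, quantile normalization, the stricter filter, no fold threshold, a test against a 2-fold change, counts summed per stem, without the stems of 3153 and 539 models, and without embryos 15 and 16 together. It was 520 with DESeq2, 807 without a filter, 662 with continuous label time, 398 in 1 fit with the neighbouring embryos, and 0 to 597 when each embryo was left out. Further fits without embryo 17 were added after seeing the data. They called 1117 of 11432 models (9.77%) with spike-in scaling, 1459 of 14847 (9.83%) with DESeq2 and 1469 of 11432 (12.8%) with continuous time. The cause was not tested. The share of higher calls has no value where 0 are called. The planned shares of models called within 6 to 12 h in the other embryos could not be had for the same reason, and the reverse was given. Nv.T1.7661.2, Nv.T1.28135.1 and Nv.T1.7161.2 passed in 9 of 22 other settings and Nv.T1.36657.1 in 9 of 18. The filter on low counts removed Nv.T1.36657.1 in the fits without embryo 11, 12, 13 or 14. The shares of settings passed are therefore not like for like. The leave-one-out range was -0.49 to 2.94 percentage points for the stem of 3153 models, turning sign without embryo 17 (-0.494), and r = 0.16 to 0.97 for component 1 over embryos 11 to 17. The planned correlation over 9 embryos was not given because 2 stood apart, and a setting without the 2 embryos farthest in time was not run. The spike-in ratio, detected models and the stem of 539 models kept their direction and passed in no setting. Between the other embryos 4419 of 10224 models were called without embryos 3, 7, 27 and 28, against 4390 of 9935. No paired analysis was possible because the labels number no replicates. Low depth in embryos 17 and 18 limits what can be seen below 14.6 and 11.1 CPM.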
